A study of Mus musculus with 9 samples.

Results

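Interferon-stimulated genes and immunity GTPases were followed in the irradiated submandibular gland of the mouse, a salivary gland, by bulk RNA sequencing. The 42 members were taken by name from a table of 54532 gene identifiers, and all 42 were among the 15224 genes abundant enough to test. They were chosen by name for their role, with earlier values of these libraries known, above all that Tgtp2 and Iigp1 were higher at 90 than at 60 days. They were kept as 2 lists: 31 genes typical of the type I interferon response, and 11 GTPases that interferon gamma induces strongly, of which 6 are immunity-related GTPases and 5 are guanylate-binding proteins. Every gland came from a wild-type mouse given 10 Gy of radiation, and the groups differed only in the time of collection, 30, 60 or 90 days later, with 3 libraries each. The labels also mention glands without irradiation, which were not analysed here, so time after irradiation cannot be told apart from the age of the mice. The study's design text asks about the degeneration of the gland that leads to lasting loss of function. The labels do not say whether the 3 libraries of a group came from separate mice, so p-values measure only the spread between these libraries, which may be technical.

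Type I interferons (alpha and beta) signal through the receptor IFNAR and a complex that includes STAT2 and IRF9 and binds the interferon-stimulated response element (ISRE). It turns on antiviral genes such as Isg15, the Ifit and Oas families and Mx1. Interferon gamma, made mainly by T cells and natural killer cells, signals through IFNGR to the gamma-activated site (GAS) in promoters and turns on the immunity-related GTPases and guanylate-binding proteins. These GTPases attack the vacuoles in which intracellular pathogens live. The lists overlap in regulation: type I interferon also induces the GTPases, gamma also induces many type I-type genes, and Irf1 is a direct target of gamma.

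The RefSeq promoter windows of the members are shown first, because 4 of the 8 GTPases with a window share an arrangement of these motifs. RefSeq (GRCm38.p6) supplied a window for 29 of the 42 members, and 13 had none. The 250 bases before each RefSeq start were searched on both strands for the ISRE core, GAAA followed by 2 bases of any kind and another GAAA, and for the GAS letters TTCNNNGAA. The following are the 120 bases before the start of 7 GTPases and 2 type I-type genes, with matches to either motif in capitals, read 5′ to 3′ on the strand of the gene.
Tgtp1 (chr11:48992247-48992366, minus strand): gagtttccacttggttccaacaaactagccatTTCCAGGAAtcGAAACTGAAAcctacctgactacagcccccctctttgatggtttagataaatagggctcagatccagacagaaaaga
Tgtp2 (chr11:49064213-49064332, minus strand): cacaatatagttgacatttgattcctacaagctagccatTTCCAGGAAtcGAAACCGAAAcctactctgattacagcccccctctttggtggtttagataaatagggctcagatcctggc
Igtp (chr11:58199436-58199555, plus strand): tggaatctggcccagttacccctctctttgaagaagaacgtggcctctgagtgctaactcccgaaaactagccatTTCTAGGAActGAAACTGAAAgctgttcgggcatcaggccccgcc
Irgm2 (chr11:58214857-58214976, plus strand): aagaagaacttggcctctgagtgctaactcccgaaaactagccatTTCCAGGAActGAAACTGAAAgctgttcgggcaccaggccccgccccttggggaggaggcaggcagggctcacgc
Irgm1 (chr11:48871421-48871540, minus strand): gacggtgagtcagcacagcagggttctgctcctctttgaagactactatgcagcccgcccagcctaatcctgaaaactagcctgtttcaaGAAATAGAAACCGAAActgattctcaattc
Gbp2 (chr3:142620543-142620662, plus strand): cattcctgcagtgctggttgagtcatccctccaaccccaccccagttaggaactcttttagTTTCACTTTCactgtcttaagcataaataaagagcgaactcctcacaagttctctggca
Gbp7 (chr3:142530216-142530335, plus strand): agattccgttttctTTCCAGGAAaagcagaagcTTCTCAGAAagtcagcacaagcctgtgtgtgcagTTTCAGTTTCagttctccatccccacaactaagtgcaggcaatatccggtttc
Isg15 (chr4:156200819-156200938, minus strand): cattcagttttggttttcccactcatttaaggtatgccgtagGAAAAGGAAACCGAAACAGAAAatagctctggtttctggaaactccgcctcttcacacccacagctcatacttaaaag
Irf1 (chr11:53769894-53770013, plus strand): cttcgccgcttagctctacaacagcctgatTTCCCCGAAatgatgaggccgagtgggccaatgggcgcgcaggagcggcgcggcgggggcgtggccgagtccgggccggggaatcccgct

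All 8 GTPases with a window held the ISRE core, and 5 of the 8 also held the GAS letters. Among the 21 type I-type genes with a window, 8 held the ISRE core, 4 the GAS letters, 2 both and 11 neither. Of 27025 genes with a window, 3.46% held the ISRE core, 8.13% the GAS letters and 0.459% both. Tgtp1, Tgtp2, Igtp and Irgm2 carried the motifs in 1 fixed arrangement, with the GAS letters, 2 bases and then the ISRE core. This arrangement was found in 5 of 32851 windows (0.0152%), the fifth belonging to Gm12185. It was searched for after its spacing had been noticed in these genes, which are relatives with similar sequence on chromosome 11. Irgm1 held the ISRE core at 2 overlapping places and no GAS letters, and Isg15 held it at 3 overlapping places. Irf1 held GAS letters and no ISRE core. A match describes letters and not a bound site, and where there is no match these letters are only not in this window.

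The libraries held between 16541396 and 26065856 counts, and the 30-day libraries were the shallowest. Levels are given in CPM, the usual share of a library's counts, after TMM scaling (which aligns the bulk of genes between libraries). A floor of 3 counts lies between 0.101 and 0.213 CPM. The defining markers of the gland were abundant: the 8 acinar markers summed to between 310100 and 645800 CPM, with the secretory gene Mucl2 alone at 31.4% to 42.8% of counts. The 90-day library 2 stood apart in its B and plasma cell markers, with a summed 251 CPM against 10.4 to 33.5 CPM in the other 8 libraries. Values without it are given for members and some pathway genes whose results turn on it. For the marker lists, fold changes without it are not given. The 30-day library 1 had the highest Mucl2 share, 42.8%. It held the lowest value of all 9 libraries in 25 of 42 members, against 2774 of 15224 genes tested. In bulk tissue, fewer cells of a type and less RNA per cell cannot be told apart.

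At 90 days the GTPase list stood above its earlier level in each of the 3 libraries, while the type I-type list did so in libraries 2 and 3 and not in library 1. Relative to the mean of the 6 libraries from 30 and 60 days, the median GTPase differed by 0.88, 0.92 and 0.54 on the log2 scale in 90-day libraries 1, 2 and 3. The median type I-type gene differed by -0.10, 0.66 and 0.44 in the same libraries. Among the 6 earlier libraries the type I-type median ran from -0.32 (30-day library 1) to 0.39 (30-day library 3). The GTPase median ran from -0.31 to 0.23 between those libraries. For the type I-type list, 90-day library 3 thus lay only just above 30-day library 3. The median of all genes tested lay between 0.00 and 0.02 in all 9 libraries. Library 1 at 90 days was thus where the lists parted most, by 0.98, against 0.25 in library 2, 0.10 in library 3 and between -0.16 and 0.18 in the earlier libraries. The difference between the lists was not tested. The earlier level includes the 60-day libraries, against which Tgtp2 and Iigp1 were known to be higher when the members were chosen. Without these 2 genes, left out after seeing the data, the GTPase medians of 90-day libraries 1, 2 and 3 were 0.55, 0.86 and 0.54. The shortened list still held Tgtp1, a near copy of Tgtp2.

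**Figure D1:**
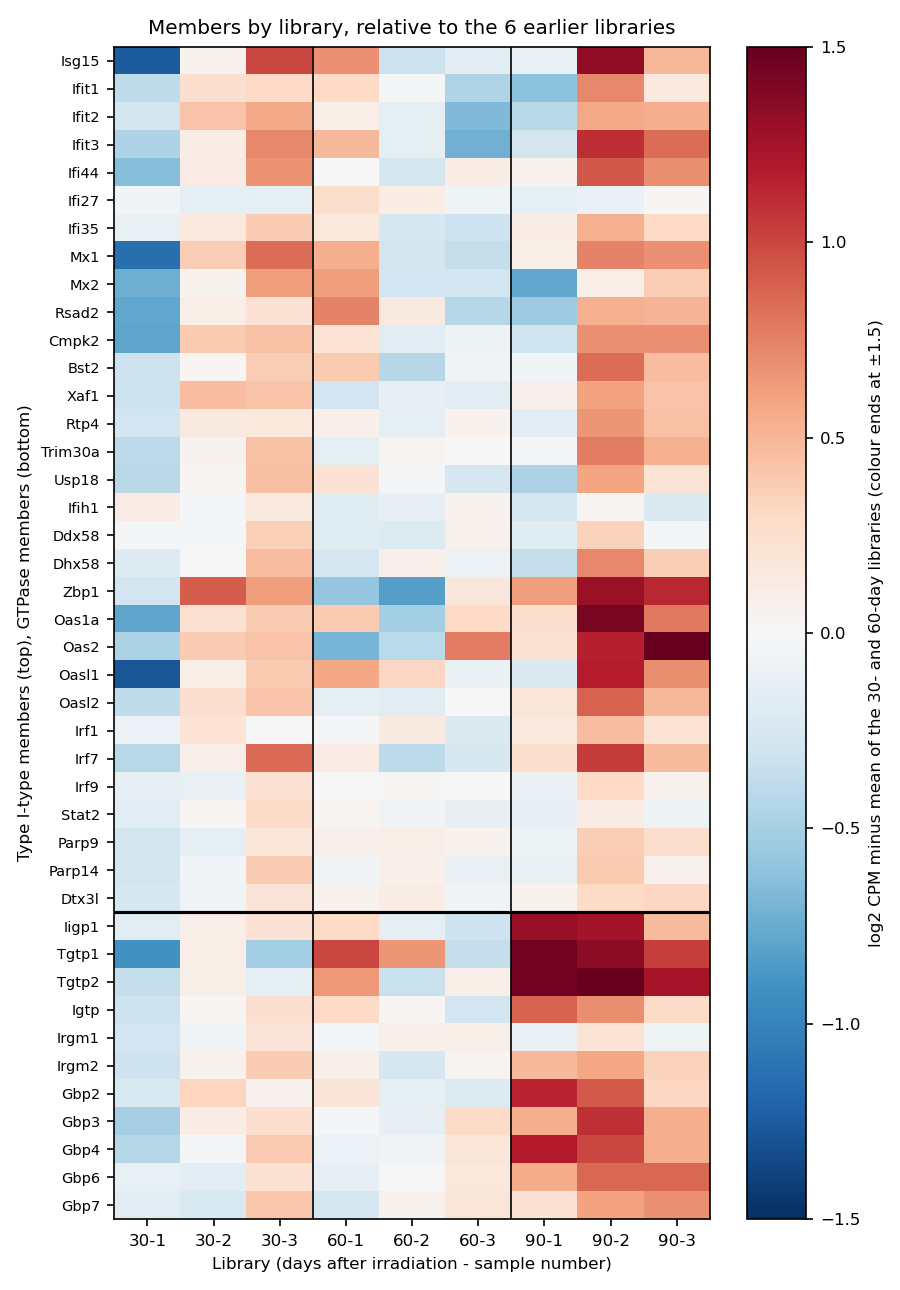
Level of each member (rows; type I-type above the heavy line, GTPases below it) in each library (columns, labelled by days after irradiation and sample number), as log2 CPM minus the mean of the 6 libraries from 30 and 60 days. Colours end at ±1.5. In 90-day library 1 the GTPase rows are mostly red, with 9 of 11 above every earlier library, while 0 of the 31 type I-type rows are. Without Tgtp2 and Iigp1, known beforehand to be higher at 90 than at 60 days, the GTPase count is 7 of 9. Tgtp1, a near copy of Tgtp2, is among these 7.

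**Figure D2:**
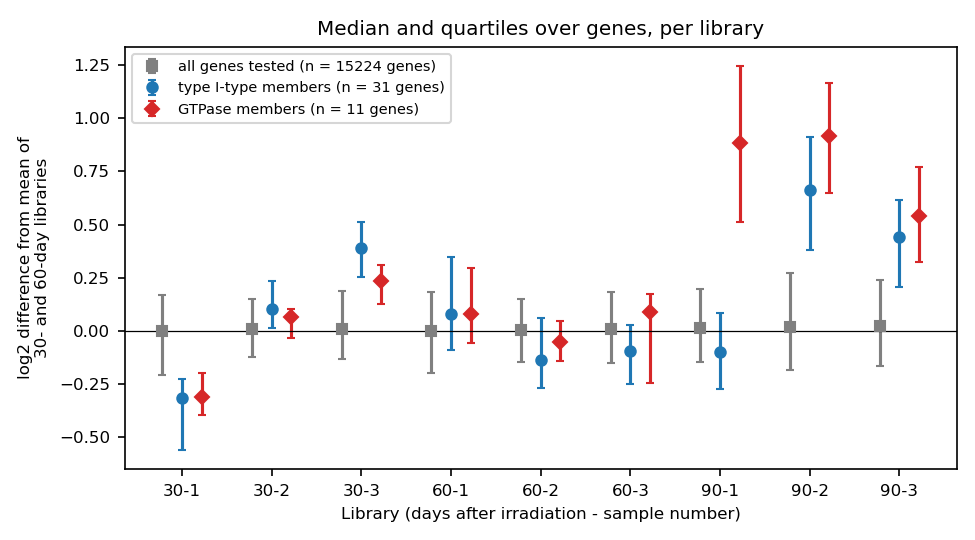
Median (symbol) and quartiles (bars) over genes of the log2 difference from the mean of the 30- and 60-day libraries, for each library on the horizontal axis. All genes tested stay near 0, and the GTPase medians at 90 days are 0.88, 0.92 and 0.54 where the type I-type medians are -0.10, 0.66 and 0.44.

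The comparison of 90 with 30 days asked which members differed over the whole interval, with edgeR's quasi-likelihood test and Benjamini-Hochberg (BH) adjustment over all 15224 genes. By this test 6 of 11 GTPases and 0 of 31 type I-type genes were higher at 90 days with an adjusted p under 0.05, and 0 members were lower. Among all genes tested, 3.57% passed in either direction, 1.81% as higher and 1.77% as lower. The median log2 fold change was 0.77 for the GTPases, 0.26 for the type I-type genes and 0.01 for all genes tested. All 11 GTPases and 27 of 31 type I-type genes had a positive fold change, as had 52.1% of all genes. At an unadjusted p under 0.05, 10 GTPases and 1 type I-type gene (Oas1a) were higher, where 8.38% of all genes were. The lowest 90-day value exceeded the highest 30-day value in 7 of 11 GTPases, in 0 of 31 type I-type genes and in 11.4% of all genes. Without Tgtp2 and Iigp1, 4 of the other 9 GTPases were called and the median of the 9 was 0.76. The 4 include Tgtp1, a near copy of Tgtp2 whose reads may not be cleanly separated from it. Leaving out Tgtp2 therefore does not fully remove what was known beforehand. Alternatives called type I-type genes in 2 cases: Oas1a, Oas2 and Oasl2 with no filter on low counts (8 GTPases called), and Oas2 with the sample number as a block (6 GTPases called).

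The number of members called depended on single libraries. It was 1 without 30-day library 1 or 90-day library 2, 2 without 90-day library 1, and 3 without 30-day library 2 or 60-day library 2. The median of the GTPases stayed between 0.64 and 0.90 over the 9 fits that each left out 1 library. That of the type I-type genes was 0.07 without 30-day library 1, 0.13 without 90-day library 2, 0.44 without 90-day library 1 and 0.40 without 30-day library 3. Without 90-day library 2, 20 of 31 type I-type genes and 10 of 11 GTPases had a positive fold change.

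Between 90 and 60 days, Tgtp2 and Iigp1 were already known to be higher when the members were assembled, so that contrast is given only as a description. Its median log2 fold change was 0.77 for the GTPases and 0.39 for the type I-type genes. Of the 11 GTPases 2 passed the threshold, where 0.256% of all genes did, and 0 of 31 type I-type genes did. Of all 42 members, 0 passed without 30-day library 2, 30-day library 3, 60-day library 2 or 90-day library 2. Without 60-day library 3 or without 90-day library 1, 0 GTPases and 1 type I-type gene passed, and without 30-day library 1, 3 GTPases and 1 type I-type gene passed. The type I-type median became 0.15 without 90-day library 2 and 0.64 without 90-day library 1. The 90-day values lay above all 60-day values in 9 of 11 GTPases, in 5 of 31 type I-type genes and in 8.3% of all genes. The comparison of 90 with 30 days uses the same 90-day libraries, and is therefore not independent of it. The test of any difference among time points contains that contrast and called 5 GTPases and Zbp1, where 3.29% of all genes passed. Without 90-day library 2 it called 0 members, without 60-day library 2 it called 2, and without 30-day library 2 it called 3.

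The immunity-related GTPases Tgtp2 and Tgtp1 had the 2 largest fold changes from 30 to 90 days among the members. Tgtp2 (ENSMUSG00000078921, chromosome 11, 49057194 to 49064206, minus strand in GRCm38) is the T-cell-specific GTPase also known as Irgb6, which loads onto parasite vacuoles. It measured 1.06, 1.49 and 1.24 CPM in 30-day libraries 1 to 3, 2.24, 1.09 and 1.502 CPM at 60 days, and 3.94, 6.74 and 3.41 CPM at 90 days. All 90-day libraries lay above all 6 earlier ones, and library 2 was the highest. The rise from 30 to 90 days was 1.89 ± 0.34 on the log2 scale (SE; BH-adjusted p = 0.00383), a mean of 4.70 ± 1.79 CPM over 1.26 ± 0.212 CPM (SD, n = 3 each). The call was kept with each of the 9 libraries left out in turn, with adjusted p at most 0.0404. Its 60 to 90 day log2 fold change was 1.55 ± 0.32 (SE).

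Its neighbour and near copy Tgtp1 (ENSMUSG00000078922, chromosome 11, 48985327 to 48994172, minus strand) measured 0.425, 0.951 and 0.592 CPM at 30 days. It measured 1.86, 1.45 and 0.668 CPM at 60 days, and 2.56, 2.37 and 1.91 CPM at 90 days. The 90-day values were again all above the earlier ones, and 60-day libraries 1 and 2 stood between. The rise from 30 to 90 days was 1.78 ± 0.43 (SE; BH-adjusted p = 0.0239). Tgtp1 rested on only 6, 16 and 10 counts in the 30-day libraries. It lost the call without 30-day libraries 1 or 3 or any 90-day library, with adjusted p from 0.0535 to 0.128, and with limma-voom (0.0509).

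Most of the sequence of this pair is shared. Of the stretches of 50 bases in the exons of Tgtp2, 85.8% also occur in Tgtp1, and 79.4% of those of Tgtp1 occur in Tgtp2, so how reads were divided between them is uncertain. With their counts summed, an alternative chosen after seeing the data, the pair measured 1.49, 2.44 and 1.84 CPM at 30 days, 4.10, 2.53 and 2.17 CPM at 60 days, and 6.51, 9.11 and 5.32 CPM at 90 days. At 90 days the summed pair exceeded its 30-day level by 1.86 ± 0.295 (SE; BH-adjusted p = 0.0014). The call was thus also made with the pair summed.

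Iigp1 (ENSMUSG00000054072, chromosome 18, 60376027 to 60392634, plus strand), also called Irga6, is a well studied GTPase of this family in infection with Toxoplasma. It measured 5.46, 6.60 and 7.16 CPM at 30 days, 7.55, 5.52 and 4.92 CPM at 60 days, and 15.3, 14.6 and 8.53 CPM at 90 days. Libraries 1 and 2 at 90 days were about double the earlier level (mean ratio of 90 to 30 days 2.00), and library 3 lay just above the highest earlier library. Iigp1 rose from 30 to 90 days by 1.00 ± 0.22 (SE; BH-adjusted p = 0.0153). The adjusted p was 0.0955 and 0.0607 without 30-day libraries 1 and 2, and 0.0558 and 0.0909 without 90-day libraries 1 and 2. Only 1.69% of its 50-base stretches occur in another gene.

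Igtp, or Irgm3, is a regulatory member that guards the cell's own membranes. Its levels were 9.78, 12.5 and 14.4 CPM at 30 days, 15.0, 12.5 and 9.97 CPM at 60 days, and 22.6, 19.8 and 14.9 CPM at 90 days. The 90-day values lay above all 30-day values, and library 3 lay within the 60-day range. The log2 fold change from 30 to 90 days, 0.64 ± 0.18 (SE; BH-adjusted p = 0.0593), missed the threshold and passed it without 30-day library 3, 60-day library 1, 60-day library 3 or 90-day library 3 (adjusted p from 0.0313 to 0.0478).

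Irgm2 is a second regulatory member, whose gene span in the annotation overlaps that of Igtp. It measured 16.1, 20.9 and 25.9 CPM at 30 days, 21.1, 16.7 and 20.5 CPM at 60 days, and 27.9, 29.8 and 25.3 CPM at 90 days. Library 3 at 30 days lay just above the lowest 90-day value. The log2 fold change was 0.40 ± 0.15 (SE; BH-adjusted p = 0.169), and 0.57 with an adjusted p of 0.0452 without that 30-day library.

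Irgm1, the third regulatory member, had the smallest 30 to 90 day fold change of the 11 GTPases. It measured 37.6, 44.2 and 52.5 CPM at 30 days, 45.0, 48.2 and 48.7 CPM at 60 days, and 42.8, 52.8 and 43.9 CPM at 90 days. The 3 time points overlapped, and the 30 to 90 day fold change was 0.05 ± 0.12 on the log2 scale (SE; BH-adjusted p = 0.883). Its sign turned without 30-day library 1 (-0.057) or 90-day library 2 (-0.053).

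The guanylate-binding proteins, larger GTPases that gather on the membranes of vacuoles and bacteria, gave 3 calls among 5 members. Gbp2 (ENSMUSG00000028270, chromosome 3, 142620602 to 142638008, plus strand) measured 9.64, 14.1 and 11.8 CPM at 30 days, 12.9, 10.3 and 9.80 CPM at 60 days, and 25.1, 21.4 and 14.0 CPM at 90 days. Libraries 1 and 2 at 90 days were the highest of the 9, and library 3 was level with the highest 30-day library, so the ranges overlapped slightly. The rise from 30 to 90 days was 0.77 ± 0.20 (SE; BH-adjusted p = 0.0415). The call was lost without 30-day libraries 1 or 3, 60-day library 2, or 90-day libraries 1 or 2, with adjusted p from 0.0714 to 0.199.

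Gbp4 (ENSMUSG00000079363, chromosome 5, 105115767 to 105139586, minus strand) measured 2.84, 3.80 and 5.09 CPM at 30 days, 3.63, 3.71 and 4.38 CPM at 60 days, and 8.87, 7.80 and 5.67 CPM at 90 days. Every 90-day value was above every earlier one, with library 1 the highest. The rise was 0.93 ± 0.24 (SE; BH-adjusted p = 0.0331). It was lost without 30-day libraries 1 or 2, 60-day library 2, or 90-day libraries 1 or 2 (adjusted p from 0.0533 to 0.183).

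Gbp3 (ENSMUSG00000028268, chromosome 3, 142560026 to 142573209, plus strand) measured 5.81, 8.92 and 9.77 CPM at 30 days, 8.03, 7.55 and 10.0 CPM at 60 days, and 12.0, 17.6 and 12.0 CPM at 90 days. The 90-day libraries were again all above the earlier ones, here with library 2 the highest. The rise was 0.76 ± 0.20 (SE; BH-adjusted p = 0.0419), and it was lost without 30-day libraries 1 or 2, 60-day library 2, or 90-day libraries 2 or 3 (adjusted p from 0.0645 to 0.275).

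Gbp6 and Gbp7 pointed the same way without passing. Gbp6 measured 2.27, 2.20 and 2.90 CPM at 30 days, 2.24, 2.44 and 2.75 CPM at 60 days, and 3.64, 4.54 and 4.52 CPM at 90 days. Its ranges did not overlap, and its 30 to 90 day log2 fold change came to 0.78 ± 0.25 (SE; BH-adjusted p = 0.0903). In its exons 70.7% of the 50-base stretches occur in other genes, mostly in Gm43302, so its count is uncertain. Gbp7 measured 6.80, 6.48 and 10.2 CPM at 30 days, 6.35, 7.96 and 8.68 CPM at 60 days, and 8.87, 11.6 and 12.3 CPM at 90 days. The 30-day library 3 lay within its 90-day range, and the log2 fold change was 0.48 ± 0.20 (SE; BH-adjusted p = 0.222).

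**Figure D3:**
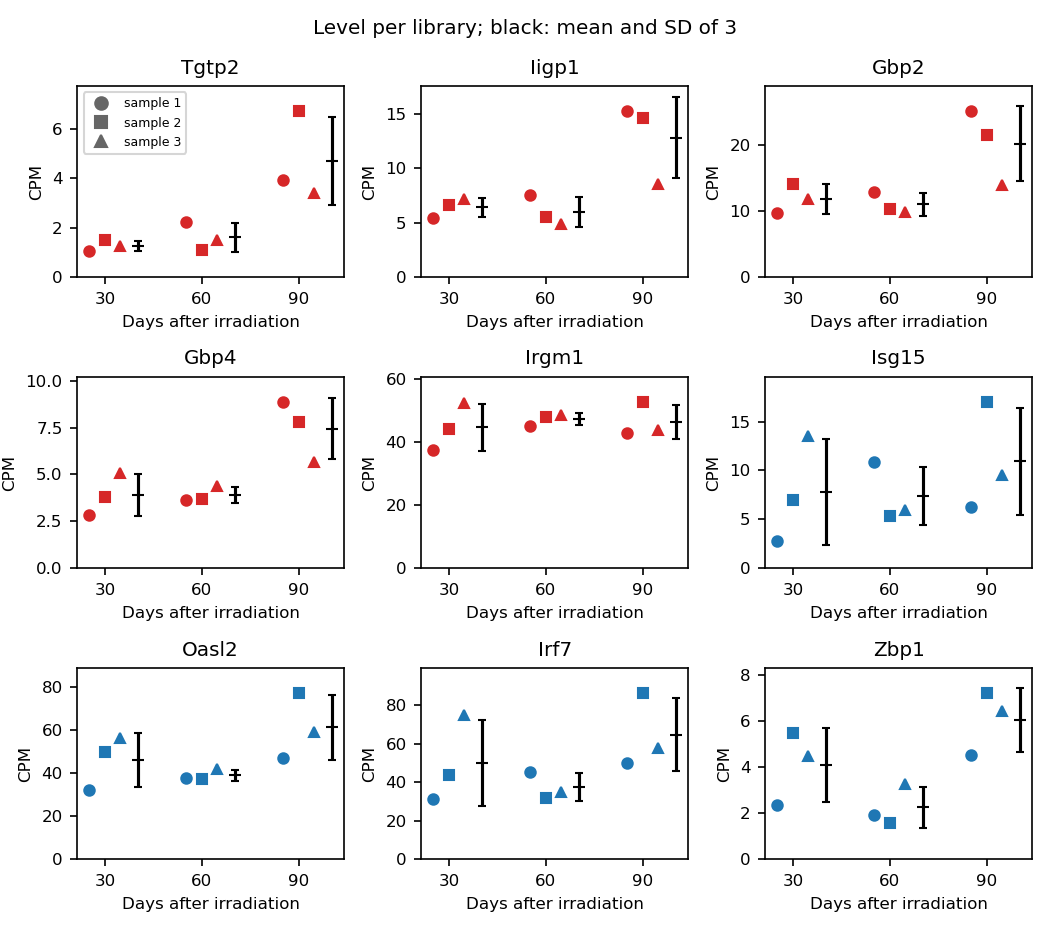
CPM per library (symbols by sample number) with the mean and SD of 3 libraries in black, against days after irradiation, for 5 GTPases (red) and 4 type I-type genes (blue). Tgtp2, Iigp1 and Gbp4 have all 90-day values above all earlier ones, Irgm1 does not, and in the type I-type genes 90-day library 1 is the lowest of its group.

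**Figure D4:**
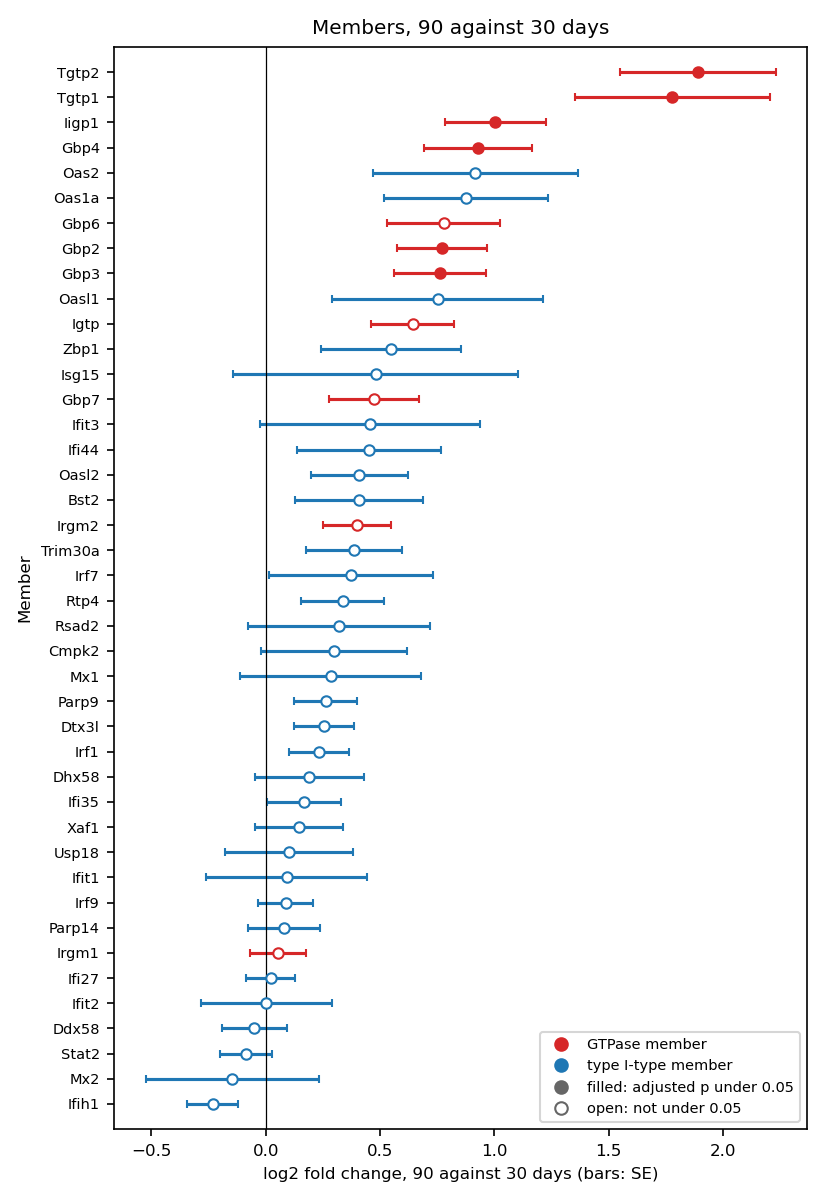
Log2 fold change from 30 to 90 days with its SE for the 42 members, in order of size, with filled symbols for an adjusted p under 0.05. The 6 filled symbols are all GTPases, from 0.76 (Gbp3) to 1.89 (Tgtp2), and the type I-type genes run from -0.23 (Ifih1) to 0.92 (Oas2).

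Among the type I-type genes, the 16 effectors and their regulators had a median log2 fold change of 0.29 from 30 to 90 days, with 0 called. Isg15, a ubiquitin-like protein that is attached to other proteins, measured 2.76, 6.95 and 13.6 CPM at 30 days, 10.8, 5.34 and 5.97 CPM at 60 days, and 6.27, 17.0 and 9.49 CPM at 90 days. The libraries within a time point differed more than the time points did. Its 30 to 90 day log2 fold change was 0.48 ± 0.62 (SE; BH-adjusted p = 0.784), and -0.0063 without 90-day library 2.

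Ifit1, which binds viral RNA with an unmodified cap, measured 12.1, 18.7 and 19.4 CPM at 30 days, 19.5, 15.6 and 11.5 CPM at 60 days, and 10.3, 26.0 and 17.4 CPM at 90 days. Its lowest and its highest library were both at 90 days. The log2 fold change was 0.09 ± 0.35 (SE; BH-adjusted p = 0.935), and its sign turned without 30-day library 1 (-0.09) or 90-day library 2 (-0.30). Ifit3, its partner, measured 6.88, 10.2 and 15.7 CPM, then 13.3, 8.59 and 5.72 CPM, then 7.82, 20.6 and 17.0 CPM at 30, 60 and 90 days. Here too the groups overlapped (0.46 ± 0.48, SE; BH-adjusted p = 0.727). Its fold change was 0.15 without 90-day library 2, 0.21 without 30-day library 1, 0.77 without 90-day library 1 and 0.81 without 30-day library 3, and 51.2% of its 50-base stretches occur in Ifit3b.

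Mx1, a dynamin-like GTPase that blocks influenza viruses, measured 1.21, 3.57 and 4.97 CPM at 30 days, 4.06, 2.26 and 2.13 CPM at 60 days, and 2.93, 4.64 and 4.47 CPM at 90 days. Its ranges overlapped, with a log2 fold change of 0.28 ± 0.40 (SE; BH-adjusted p = 0.794), or -0.10 without 30-day library 1. Usp18, which removes Isg15 from proteins and damps the receptor, measured 11.3, 15.3 and 20.7 CPM at 30 days, 17.5, 14.9 and 12.6 CPM at 60 days, and 10.9, 22.7 and 17.4 CPM at 90 days. The groups overlapped here as well (0.10 ± 0.28, SE; BH-adjusted p = 0.908), and the sign turned without 30-day library 1 (-0.09) or 90-day library 2 (-0.18).

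Bst2, or tetherin, which holds budding viruses at the cell surface, measured 18.1, 23.1 and 29.1 CPM at 30 days, 29.6, 16.7 and 21.8 CPM at 60 days, and 21.8, 40.4 and 31.1 CPM at 90 days. Library 1 at 90 days lay within the earlier range and libraries 2 and 3 above it. The log2 fold change was 0.41 ± 0.28 (SE; BH-adjusted p = 0.532), and 0.16 without 90-day library 2 or 0.25 without 30-day library 1. The other effectors and regulators (Ifit2, Ifi44, Ifi27, Ifi35, Mx2, Rsad2, Cmpk2, Xaf1, Rtp4 and Trim30a) had log2 fold changes from -0.15 (Mx2) to 0.45 (Ifi44), and 0 of them had an unadjusted p under 0.05.

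The oligoadenylate synthetases, which make the signal that activates the nuclease RNase L, and their relatives had the highest median of the type I-type groups, 0.81 over Oas1a, Oas2, Oasl1 and Oasl2. Oas2 measured 2.48, 4.58 and 4.74 CPM at 30 days, 2.12, 2.62 and 6.01 CPM at 60 days, and 4.11, 7.94 and 10.5 CPM at 90 days. Library 1 at 90 days lay within the earlier range, and libraries 2 and 3 lay above it. The log2 fold change of Oas2 was 0.92 ± 0.45 (SE; BH-adjusted p = 0.344), and 0.60 without 90-day library 3. Oas2 passed with no filter (adjusted p = 0.0105) and under the block (adjusted p = 0.0314), and its adjusted p ran up to 0.688 over the alternatives. That of Oas1a was 0.87 ± 0.36 (SE; BH-adjusted p = 0.242), in a gene that shares 57.6% of its 50-base stretches with Oas1g. Those of Oasl1 and Oasl2 were 0.75 ± 0.46 and 0.41 ± 0.21 (SE; BH-adjusted p = 0.480 and 0.367). Without 90-day library 2 the fold changes of Oas1a, Oasl1 and Oasl2 were 0.50, 0.38 and 0.20.

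The sensors of viral RNA and of Z-form nucleic acid had a median of 0.07. Ifih1 (MDA5), Ddx58 (RIG-I) and their regulator Dhx58 (LGP2) had log2 fold changes of -0.23, -0.05 and 0.19, with adjusted p-values of 0.297, 0.909 and 0.766. Zbp1, a trigger of necroptosis, had its lowest mean at 60 days. It measured 2.34, 5.47 and 4.50 CPM at 30 days, 1.90, 1.58 and 3.25 CPM at 60 days, and 4.52, 7.22 and 6.43 CPM at 90 days. All 90-day values were above all 60-day values, while the 30-day values overlapped with both groups. Its log2 fold change was -0.87 ± 0.33 from 30 to 60 days (SE; BH-adjusted p = 0.255) and 0.55 ± 0.31 from 30 to 90 days (SE; BH-adjusted p = 0.393).

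The transcription factors of the response had a median of 0.16. Irf7, which amplifies type I interferon production, measured 31.0, 43.7 and 74.9 CPM at 30 days, 45.4, 31.7 and 35.0 CPM at 60 days, and 49.9, 86.3 and 57.9 CPM at 90 days. The spread at 30 days covered most of the 90-day range (0.37 ± 0.36, SE; BH-adjusted p = 0.697). Its fold change was 0.10 without 90-day library 2, 0.12 without 30-day library 1 and 0.78 without 30-day library 3. Irf1, the direct target of gamma, measured 18.9, 23.2 and 20.01 CPM at 30 days, 19.6, 22.02 and 17.2 CPM at 60 days, and 22.3, 27.6 and 23.1 CPM at 90 days. Its values were close together, and the log2 fold change was 0.23 ± 0.13 (SE; BH-adjusted p = 0.392), or 0.13 without 90-day library 2.

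Stat2, a subunit of the type I complex, measured 62.9, 71.1 and 85.5 CPM at 30 days, 71.7, 67.7 and 64.3 CPM at 60 days, and 64.2, 76.0 and 66.6 CPM at 90 days. All 90-day values lay inside the 30-day range, and the log2 fold change was -0.09 ± 0.12 (SE; BH-adjusted p = 0.781). Scaling by library size alone put it at 0.13 (median over all genes 0.24), and leaving out 30-day library 3 at 0.033. Irf9, its DNA-binding partner, had a log2 fold change of 0.09 ± 0.12 (SE; BH-adjusted p = 0.788). Parp9, its partner Dtx3l, and Parp14, enzymes of ADP-ribosylation and ubiquitination in this response, had log2 fold changes of 0.26, 0.26 and 0.08 (adjusted p = 0.356, 0.341 and 0.867).

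Between 30 and 60 days 0 of 42 members passed the threshold, where 1.56% of all genes did. At an unadjusted p under 0.05 there were 2 lower type I-type genes (Xaf1 and Zbp1), where 5.94% of all genes were lower, and 1 higher GTPase (Tgtp1), where 6.42% were higher. The median log2 fold change was -0.11 for the type I-type genes, with 25 of 31 negative, and 0.01 for the GTPases. The type I-type median depended on which 30-day library was present: it was -0.29 without library 1 and 0.10 without library 3. It was -0.18 without 60-day library 1 and -0.04 without 60-day library 3. The GTPase median was -0.12 and 0.21 without 30-day libraries 1 and 3, and between -0.03 and 0.04 without 30-day library 2 or any 60-day library.

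The libraries of a time point differed from each other in an order that most type I-type genes shared. At 90 days library 1 was the lowest of the 3 in 31 of 31 type I-type genes and in 3 of 11 GTPases, against 33.9% of all genes tested. Library 2 was the highest of the 3 in 27 of 31 type I-type genes and in 5 of 11 GTPases, against 34.3% of all genes. At 30 days library 1 was the lowest in 28 of 31 type I-type genes and in 9 of 11 GTPases, against 37.7% of all genes, and library 3 the highest in 27 and 8, against 33.7%. The genes of a library share 1 tissue sample and are not independent of each other, so these counts describe the libraries. The median coefficient of variation of the type I-type genes was 27.7% at 30 days, 13.9% at 60 days and 27.7% at 90 days, and that of the GTPases 19.0%, 15.3% and 20.3%.

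Taken singly, the 90-day libraries placed different members above all 6 earlier libraries. In library 1 these were 9 of 11 GTPases, all but Irgm1 and Gbp7, and 0 of 31 type I-type genes, where 12.4% of all genes were. In library 2 they were 11 of 11 GTPases and 23 of 31 type I-type genes (17.9% of all genes). In library 3 they were 7 of 11 GTPases and 13 of 31 type I-type genes (16.2% of all genes). These counts include Tgtp2 and Iigp1, known to be higher at 90 than at 60 days when the members were chosen. Without these 2 genes, the GTPase counts in libraries 1, 2 and 3 were 7, 9 and 5 of 9. Each of these counts still includes Tgtp1, a near copy of Tgtp2. Library 2 held the highest value of all 9 libraries for 21 of 31 type I-type genes. Among the GTPases, 5 peaked in library 1, 5 in library 2 and 1 in library 3.

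Markers of immune cells also differed between the 90-day libraries. The 10 T cell markers, of which 7 could be tested and 0 passed at 90 against 30 days, summed to 5.18 to 11.8 CPM at 30 days and 6.43 to 11.2 CPM at 60 days. They summed to 12.4, 28.2 and 14.6 CPM in 90-day libraries 1, 2 and 3. The 7 that were tested had a median log2 fold change of 1.33 from 30 to 90 days. All 7 were positive, and 4 were higher at an unadjusted p under 0.05, where 8.38% of all genes were. In 6 of the 7, 90-day library 2 held the highest value of all 9 libraries, and their fold changes without it are not given. The sum of the 8 B and plasma cell markers was 12.3 to 18.7 CPM at 30 days, 10.4 to 15.0 CPM at 60 days, and 23.0, 251 and 33.5 CPM in the 90-day libraries, most of it from Ighm at 191 CPM in library 2. Of these 8 markers 3 could be tested, and 0 passed.

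The 9 macrophage markers summed to 182 to 342 CPM at 30 days, 223 to 250 CPM at 60 days, and 253, 427 and 268 CPM at 90 days, with 0 of 9 called. For the 10 markers of natural killer and cytotoxic cells, also with 0 called, the sums were 9.29 to 16.3 CPM, 13.1 to 15.3 CPM, and 16.4, 23.6 and 19.8 CPM. In library 1 the sum of the T cell markers lay only just above the highest earlier library, 12.4 against 11.8 CPM. There 2 of 7 tested T cell markers and 1 of 3 tested B and plasma cell markers lay above all 6 earlier libraries. In library 1 the median T cell marker differed from the earlier mean by 0.84 on the log2 scale, with 7 of 7 above 0. The median GTPase differed by 0.88 there. B and plasma cell markers stood at 0.22 (3 of 3 above 0) and natural killer and cytotoxic markers at 0.06 (5 of 10). Macrophage markers stood at -0.02 (2 of 9). The neutrophil markers S100a8 and Retnlg were at 0 in all 9 libraries, and of the lymph node genes Cxcl13 reached 27 counts in library 2. Without library 2 the GTPase median from 30 to 90 days was 0.72 and the type I-type median 0.13.

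Markers of the gland's own cells also differed between 30 and 90 days. Of the 8 duct cell markers 3 were called higher, among them the growth factor gene Egf and the renin gene Ren1, with log2 fold changes of 2.09 and 2.37 (adjusted p = 0.00077 and 0.0358). The sum of the 8 ran from 18050 to 22810 CPM at 30 days and 26970 to 31500 CPM at 60 days, and was 22850, 27670 and 28320 CPM in the 90-day libraries. Of the 8 acinar markers 2 were called lower, the water channel Aqp5 and the muscarinic receptor Chrm3 (-0.57 and -0.53, adjusted p = 0.0113 and 0.0148), and 1 higher, the amylase gene Amy1 (0.94, adjusted p = 0.00153). All 6 myoepithelial markers had positive fold changes with an unadjusted p under 0.05, and 1 was called, Trp63 (0.92 ± 0.21, SE; BH-adjusted p = 0.0289). Their sum was 327 to 452 CPM at 30 days, 485 to 526 CPM at 60 days, and 444, 626 and 547 CPM at 90 days, and all 6 were highest in 90-day library 2. The part of the immune and gland cells in the members' results was not tested.

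**Figure D5:**
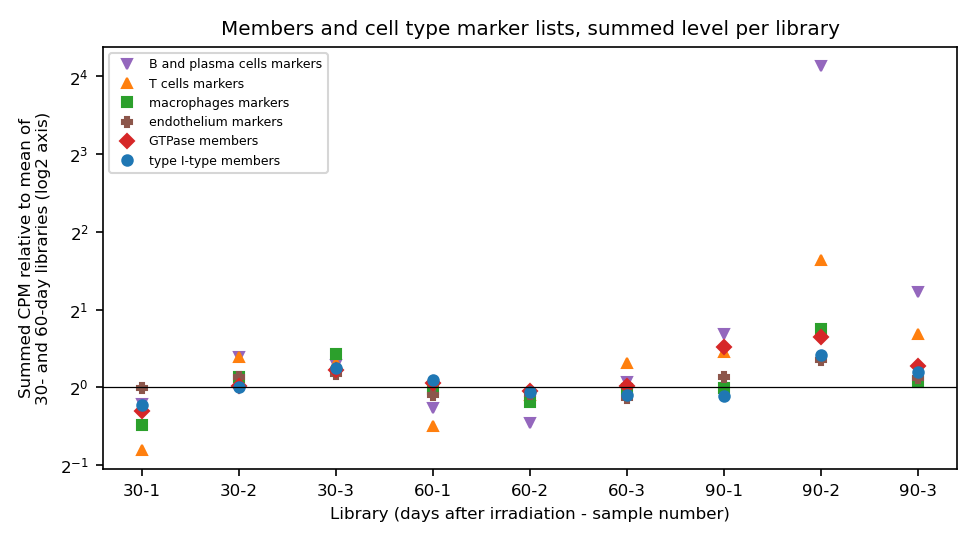
Summed CPM of the member lists and of 4 marker lists in each library, relative to the mean of the 30- and 60-day libraries, on a log2 axis. The B and plasma cell markers of 90-day library 2 stand at 17.5 times the earlier mean and the T cell markers at 3.12 times. In 90-day libraries 1 and 3 the T cell markers stand at 1.37 and 1.61 times. The summed GTPases stand at 1.43, 1.56 and 1.21 times in 90-day libraries 1, 2 and 3.

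The rest of the interferon pathway was read from a list of 112 further genes, of which 94 could be tested. Transcripts of the interferons themselves were near or below detection. Of 10 interferon genes, 8 (among them Ifnb1) had 0 counts in all 9 libraries, where a floor of 3 counts allows up to 0.213 CPM, a limit for counting error only. Ifng had 8 counts over 4 libraries, none of them with more than 4, and 1 of these counts was at 90 days. Ifnk had 14 counts over 4 libraries.

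Of 6 interferon receptor genes 0 were called at 90 against 30 days. Ifnar1 and Ifngr1 had log2 fold changes from 30 to 90 days of 0.11 ± 0.12 and 0.22 ± 0.14 (SE; BH-adjusted p = 0.733 and 0.468). Socs1, an inhibitor that gamma induces, had a log2 fold change of 1.02 ± 0.58 (SE; BH-adjusted p = 0.407), on 4 to 75 counts per library, and 0.59 without 90-day library 2. Ifngr1 was at 0.03 and Ifnar1 at 0.04 without that library.

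Other targets of gamma gave 0 calls in 10 genes tested, with a median log2 fold change of 0.62. Relative to the earlier mean, their median was 0.57, 1.06 and 0.51 in 90-day libraries 1, 2 and 3. In 90-day library 1, 10 of 10 lay above that mean, as did 7897 of all 15224 genes tested. In 30-day library 3, which is part of that mean, 10 of 10 also lay above it, with a median of 0.45. Nlrc5, the activator of the MHC class I genes, measured 9.78, 9.99 and 17.8 CPM at 30 days, 11.5, 15.4 and 16.2 CPM at 60 days, and 19.7, 20.9 and 17.2 CPM at 90 days. The 90-day values lay above all 60-day values, and 30-day library 3 reached into their range (0.62 ± 0.20, SE; BH-adjusted p = 0.119). Without that library it passed (0.96, adjusted p = 0.00564). The chemokine Cxcl9, which draws T cells, measured 0.284, 2.73 and 1.95 CPM at 30 days, 0.906, 1.36 and 1.17 CPM at 60 days, and 2.60, 8.39 and 1.91 CPM at 90 days. Library 2 at 90 days stood alone, and the log2 fold change was 1.36 ± 0.70 (SE; BH-adjusted p = 0.380), or 0.42 ± 0.54 without it (SE; BH-adjusted p = 0.854). Cxcl10 had a log2 fold change of 0.76 ± 0.49 (SE; BH-adjusted p = 0.489), or 0.34 without 30-day library 1 and 1.33 without 30-day library 2.

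The 10 further interferon-inducible GTPases that could be tested, which the members do not include, had a median log2 fold change of 0.55 from 30 to 90 days with 0 called. Relative to the earlier mean, their median was 0.67, 0.84 and 0.67 in 90-day libraries 1, 2 and 3. In 90-day library 1, 8 of 10 lay above that mean. So did 8 of 10 in 30-day library 2 and in 60-day library 3. In 30-day library 3, 9 of 10 did, with a median of 0.55. The 38 other interferon-stimulated genes tested had a median of 0.02 in 90-day library 1, with 19 above the earlier mean. In 30-day library 3 their median was 0.29, with 35 above it. Across the 94 tested pathway genes the median was 0.22, and 1 gene passed as higher and 0 as lower at 90 against 30 days. It was Ly6e, a membrane protein that interferon induces. Ly6e measured 419, 478 and 522 CPM at 30 days, 559, 616 and 643 CPM at 60 days, and 547, 797 and 731 CPM at 90 days. All libraries of 60 and 90 days were above those of 30 days, and the rise to 90 days was 0.55 ± 0.14 (SE; BH-adjusted p = 0.0333). The call was lost without 30-day libraries 1 or 2, 60-day library 2, or 90-day libraries 2 or 3, with adjusted p from 0.0645 to 0.21.

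Levels per kilobase of exon allow genes to be set side by side. Tgtp2 and Tgtp1, with the largest fold changes from 30 to 90 days, were among the least abundant members. At 30 days the mean level of Tgtp1 was 0.205 CPM per kilobase, of Gbp6 0.413, of Tgtp2 0.430 and of Gbp4 0.522. In Tgtp1, Gbp6 and Tgtp2, 81.2%, 70.7% and 86.6% of the 50-base stretches occur in other genes. How reads that map to several genes were counted is not given, so the low levels of these genes are uncertain. Irgm1, which was not called, was the most abundant GTPase on this scale at 30 days, at 7.70 CPM per kilobase, and Igtp followed at 6.04. At 90 days Igtp was at 9.43, Gbp2 at 8.03 and Irgm1 at 8.003 CPM per kilobase. Among the type I-type genes Ifi27 was by far the most abundant, at 121, 140 and 123 CPM per kilobase at 30, 60 and 90 days, followed by Bst2 at 25.9, 25.1 and 34.5. Mx1 was the lowest of them at 30 days, at 0.858 CPM per kilobase.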

How the data were processed

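Total RNA from sections of submandibular gland was treated with DNase I and made into libraries with a SMARTER mRNA-seq kit, per the labels' protocols. The authors deposited raw read counts per Ensembl gene. The submitters' processing notes name fastp, STAR, featureCounts and the build mm10. The annotation, the use of strand and the treatment of reads that map to several genes are not given in the sources used here. Columns were matched to samples by day and sample number, and 3 further columns matched no listed sample and were not used. Of 54532 identifiers, 54409 had a symbol and a position in GENCODE mouse release M21 (GRCm38). Promoter sequences are RefSeq's (GRCm38.p6), whose starts can lie inside the GENCODE span.

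Genes were filtered with filterByExpr (minimum count 10), which kept 15224 of 27001 genes with any count. Libraries were scaled with TMM, and all 9 were fitted together with edgeR 4.0.16 (quasi-likelihood test, R 4.3.3, time point as the only term), with Benjamini-Hochberg adjustment over all genes tested and a threshold of 0.05. The common biological coefficient of variation was 0.15. On simulated data for 90 against 30 days (14912 genes, 200 changed), the test recovered 68% of the genes given a log2 change of 1 and 85% of those given 2. False calls made up 4.38% of the calls. The changed genes were drawn from all genes tested, and each gene varied independently of the others. Most type I-type genes instead shared an order of libraries, so these rates need not hold for the members. The members and the gene lists were chosen with earlier results of these data known, and lists get counts and medians without a test. All values are given for members that passed the test and for a fixed set of members and pathway genes chosen by role, except a pathway gene that, like a marker gene, is not reported here. Oasl2 was plotted in addition. Floors cover counting error only, and the reads carry no molecular identifiers that the sources name. The SE of a fold change and the SD of a group also include the spread between libraries.

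The fits were repeated with library-size scaling, DESeq2-type size factors, DESeq2 1.42.0, limma-voom (limma 3.58.1), no filter, at least 10 counts in every sample, the 6 samples of a contrast alone, the sample number as a block, each library left out, and Irf1 left out of its list. The sum of Tgtp1 and Tgtp2, the GTPase list without Tgtp2 and Iigp1, and the search for the joined motif were chosen after seeing the data. Near copies were measured as the share of 50-base exon stretches found in another gene. Figures were drawn with matplotlib 3.10.9.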

Additional observations from a re-analysis of the deposited data

How the results depend on the processing

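Between 60 and 30 days 0 members were called under every alternative run. Between 90 and 30 days the 6 calls became 3 with limma-voom and 11 with no filter, and 1 to 7 with each library left out. Between 90 and 60 days the 2 calls became 5 with DESeq2, 1 with limma-voom, 11 with no filter and 0 with the 6 samples alone, and 0 to 4 with each library left out. The test of any difference among time points, which contains that contrast, called 6 members (5 GTPases and Zbp1), against 3.29% of all genes, with 10 under DESeq2, 12 with no filter, and 0 to 7 with each library left out. It called 0 without 90-day library 2, 2 without 60-day library 2 and 3 without 30-day library 2.

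Over all genes tested, the sample numbers showed no clear pairing of the libraries. The deviations of same-numbered libraries from other time points correlated from -0.06 to 0.191, over 0.1 in 1 of 9 pairs. Those of other-numbered libraries correlated from -0.21 to 0.189, over 0.1 in 1 of 18 pairs. A correlation over all genes cannot exclude a pairing that touches only some of them. With the sample number as a block, the calls were 7 at 90 against 30 days, 5 at 90 against 60 days and 9 for any difference.

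With each library left out, the type I-type median ran from -0.29 to 0.10 (60 against 30 days), 0.15 to 0.64 (90 against 60) and 0.07 to 0.44 (90 against 30). The GTPase median ran from -0.12 to 0.21, 0.69 to 0.80 and 0.64 to 0.90. Library-size scaling moved the median of all genes to 0.24 for 90 against 30 days, with the GTPase median at 1.00, the type I-type median at 0.47 and 7 calls. The call of Tgtp2 from 30 to 90 days held in 18 of 18 alternatives, the summed pair among them, that of Iigp1 in 13 of 17, and those of Gbp4, Tgtp1, Gbp2 and Gbp3 in 12, 11, 10 and 10 of 17. Limma-voom lost Tgtp1, Gbp2 and Gbp3 (adjusted p = 0.0509, 0.0739 and 0.0584), and the 6 samples alone lost Gbp2 and Gbp3 (0.0761 and 0.0553).

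Signs from 30 to 90 days turned only in members that were not called. With each library left out, the log2 fold change ran from -0.0063 to 1.14 in Isg15, -0.30 to 0.37 in Ifit1, -0.10 to 0.72 in Mx1, -0.18 to 0.34 in Usp18, -0.057 to 0.18 in Irgm1 and -0.19 to 0.033 in Stat2. The negative values came without 30-day library 1 (Ifit1 -0.09, Mx1 -0.10, Usp18 -0.09, Irgm1 -0.057) or without 90-day library 2 (Isg15 -0.0063, Ifit1 -0.30, Usp18 -0.18, Irgm1 -0.053), and the positive value of Stat2 came without 30-day library 3 and with library-size scaling (0.13). The cause of these changes was not tested. With 6 to 25 counts for Tgtp1 and Tgtp2 in the 30-day libraries, counting error limits the precision of their fold changes.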
